A study of Mus musculus with 4 samples.

Results

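Type 2 cytokine cells were defined by their transcripts: at least 2 unique molecular identifiers (UMIs, each counting 1 captured transcript) of Il13 and Il5 together, 0 UMIs of the mast cell and basophil genes Cpa3, Mcpt8, Fcer1a and Ms4a2, and at most 3 UMIs of the macrophage genes C1qa, C1qb and C1qc. Of 27705 leukocytes with at least 200 genes and at most 10% mitochondrial UMIs, 190 (0.686%) met this rule. They came from CD45+ cells sorted alive from implanted mouse fibrosarcomas 11 days after implantation and profiled with 10x 3′ chemistry. One group of tumours is labelled Raldh1/3 DKO, a double knockout of retinaldehyde dehydrogenases, which make retinoic acid, and the other Cas9 Control; all tumours were untreated. Each group had 2 libraries and each library pooled 2 tumours, so the p-values of DKO against control below measure the spread between pools. Where cell sets of the same libraries are compared, the p-values measure how the difference between the sets varied over the libraries. Guides, clones, mouse strain and age are not given in the sources used here.

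Type 2 immunity is driven by interleukins 4, 5 and 13, made mainly by T helper cells of the Th2 type and by group 2 innate lymphoid cells (ILC2). Both cell types depend on the transcription factor GATA3 and respond to the alarmin IL-33 through its receptor ST2, the product of Il1rl1; a T cell receptor with its CD3 chains is what sets Th2 cells apart from ILC2. IL-13 and IL-4 act on macrophages and epithelium, IL-5 on eosinophils, and amphiregulin (Areg) on tissue repair. Retinoic acid is known to shape T helper and innate lymphoid cell fates.

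The cytokine genes of the rule, Il13 and Il5, lie on chromosome 11 (GRCm38) together with Il4, which the rule did not use. Il4 is at chr11:53602982-53618669 and Il13 at chr11:53631324-53634702 on the minus strand, and Il5 at chr11:53720794-53725106 on the plus strand. Rad50 lies between Il13 and Il5 at chr11:53649519-53707319. GATA3 is known to bind this locus in Th2 cells. The 250 bases before each start (RefSeq, GRCm38.p6, 5′ to 3′ on the strand of the gene) are shown because these promoters sit at the genes that define and mark the cells. Capitals mark matches to the GATA motifs AGATAA and TGATAA, or to AGATAG and TGATAG, on either strand. The windows are chr11:53634703-53634952 for Il13, chr11:53720544-53720793 for Il5 and chr11:53618666-53618915 for Il4.
Il13: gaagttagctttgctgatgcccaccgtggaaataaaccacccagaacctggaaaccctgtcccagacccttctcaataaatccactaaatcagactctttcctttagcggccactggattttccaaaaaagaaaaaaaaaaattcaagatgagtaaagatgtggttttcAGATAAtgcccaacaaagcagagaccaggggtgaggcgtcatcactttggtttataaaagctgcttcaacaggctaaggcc
Il5: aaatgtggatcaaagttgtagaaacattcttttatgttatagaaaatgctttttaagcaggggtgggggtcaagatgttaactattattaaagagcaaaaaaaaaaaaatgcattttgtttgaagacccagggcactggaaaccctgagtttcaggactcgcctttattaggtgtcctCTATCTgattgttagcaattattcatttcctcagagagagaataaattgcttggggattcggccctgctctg
Il4: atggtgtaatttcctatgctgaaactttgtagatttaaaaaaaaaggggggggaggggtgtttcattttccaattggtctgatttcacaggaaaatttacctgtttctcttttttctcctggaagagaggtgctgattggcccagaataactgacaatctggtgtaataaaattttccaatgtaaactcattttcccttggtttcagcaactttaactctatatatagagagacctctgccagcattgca
The Il13 window held AGATAA, beginning 81 bases before the start, and the Il5 window held CTATCT, the reverse complement of AGATAG, beginning 72 bases before the start. The Il4 window held none of these letters. Of 32851 such windows in the same table, 8718 (26.5%) held at least 1 of the motifs, so a match is common and is a description of sequence alone.

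The 4 libraries held between 57458026 and 80032966 UMIs over 5429 to 9206 barcodes. Between 17 and 35 barcodes were shared by any 2 libraries, and 0 of these belonged to type 2 cytokine cells in both. Transcripts of the edited genes bear little on the genotype in a sort that removed most tumour cells: over all cells Aldh1a1 (Raldh1) had 0 and 1 UMIs in DKO and 1 and 0 in control, and Aldh1a3 (Raldh3) had 13 and 25 UMIs in DKO and 29 and 9 in control. Neither was seen in a type 2 cytokine cell.

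The values that chose the cells are given as a description. The sum of Il13 and Il5 UMIs had a median of 7 and reached 254, and 80 of the 190 cells had 10 or more. Just inside the threshold lay 39 cells with exactly 2 UMIs, of which 38 had a UMI of Cd3d, Cd3e or Cd3g. Just outside it lay 131 cells with exactly 1 UMI that otherwise met the rule, of which 106 had a Cd3 UMI and 83 a Cd4 UMI. The exclusions removed 25 of the 215 cells with 2 or more UMIs, 11 for mast cell genes (9 of them in DKO 2) and 14 for C1q genes. As a measure of free RNA, 65 of 9910 cells with 20 or more C1q UMIs and no Cd3 UMI (0.656%) had a UMI of Il13 or Il5, and 1 had 2 or more. By library the share with such a UMI was 0.865% and 1.06% in DKO and 0.278% and 0.714% in control. The part of free RNA in the shares of type 2 cytokine cells given below was not tested. Those macrophage-type cells had median depths of 15524 and 16820 UMIs in DKO and 12272 and 11455 in control. They were deeper than the type 2 cytokine cells, at 6959 to 9966 UMIs.

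Within the cells the 2 defining cytokines were unevenly shared. Both Il13 and Il5 were seen in 77 cells, Il13 alone in 95 and Il5 alone in 18. The 80 cells with 10 or more UMIs held 90.3% of all Il13 UMIs and 88.0% of all Il5 UMIs, and 56 of them had both transcripts. Cells with 10 or more UMIs occurred in every library: 24 of 57 and 31 of 70 in DKO, and 14 of 30 and 11 of 33 in control.

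**Figure D1:**
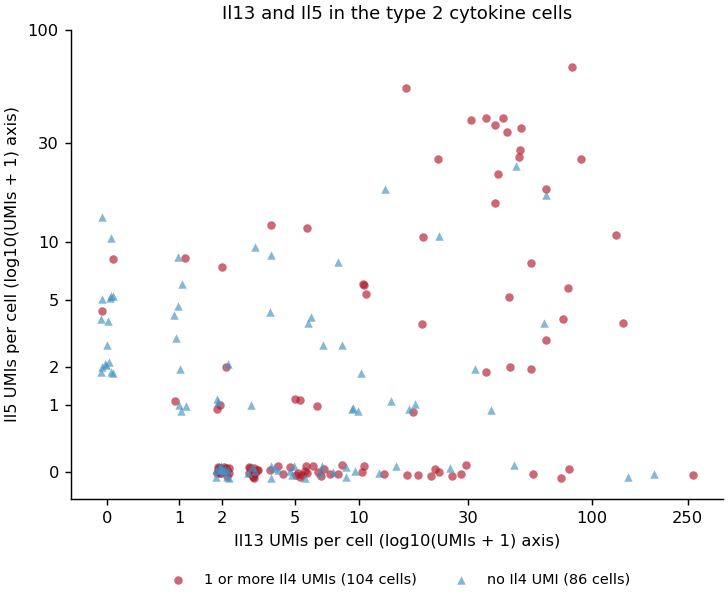
Each point is 1 of the 190 type 2 cytokine cells of all 4 libraries, with Il13 UMIs on the x axis and Il5 UMIs on the y axis, both on a log10(UMIs + 1) scale with small random offsets so that equal counts can be told apart. Red circles are the 104 cells with an Il4 UMI and blue triangles the 86 without; the cells at 0 on either axis have 2 or more UMIs on the other, as the rule requires.

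The label says lymphocytes, and the split by CD3 transcripts put nearly all of them among T cells. Cd3d, Cd3e or Cd3g was seen in 188 of the 190 cells (98.9%), and Trac, Trbc1 or Trbc2, the constant regions of the alpha-beta T cell receptor, in 188. Cd4 was seen in 181 cells and Cd8a in 1. Cd4 without Cd8a and without Cd8b1, the other CD8 chain, was seen in 169 cells. By library these were 45 of 57 and 63 of 70 cells in DKO, and 30 of 30 and 31 of 33 in control. Cd4 itself was seen in 51 and 68 cells in DKO and in 30 and 32 in control. Foxp3, which marks regulatory T cells, was seen in 2 cells. Trdc, of gamma-delta T cells, was seen in 1 cell and Zbtb16, of natural killer T cells, in 0. The cells carried several T cell receptor genes: 12 beta-chain variable genes were detected over 33 cells, led by Trbv19 in 7 cells and Trbv1 in 6.

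The Cd3-zero side held 2 cells, 1 in each DKO library (1.05%, exact Clopper-Pearson 95% interval 0.128 to 3.75, counting error only). The cell in DKO 1 was shallow, with 906 UMIs, and had 5 Il13, 1 Il5, 8 Il4, 3 Gata3 and 1 Il1rl1 UMIs. The cell in DKO 2 had 9938 UMIs, 2 of them Il13, and none of Trac, Trbc1, Trbc2, Cd4 or Gata3. A separate innate lymphoid group was thus not detectable at this number of cells. Nmur1, the neuromedin U receptor typical of ILC2, was seen in 5 of the 190 cells, and Ptgdr2, the prostaglandin D2 receptor CRTH2 of Th2 cells and ILC2, in 0. Many ILC2 genes are shared with Th2 cells: against the conventional CD4 T cells described further on, 7 of 12 tested genes of the ILC2 identity list were higher (Il1rl1, Gata3, Id2, Il7r, Calca, Cd200r1 and Ly6a) and 1, Rora, was lower, with a median log2 difference of 0.90 beside 0.01 over all genes. In that comparison 7.62% of all tested genes were higher and 6.82% lower.

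The cytokine transcripts Il4 and Areg, which the rule did not use, were each seen in more of the cells than not. Il4 was seen in 104 of 190 cells (54.7%) and Areg in 102 (53.7%). In DKO, Il4 was in 31 of 57 and 42 of 70 cells, and in control in 20 of 30 and 11 of 33. Areg was in 31 of 57 and 45 of 70 cells in DKO and in 17 of 30 and 9 of 33 in control. For both genes control 2 had the lowest share, while control 1 was the highest for Il4 and between the DKO libraries for Areg. The same transcripts were seen in 3.88% (Il4) and 11.8% (Areg) of conventional CD4 T cells, and in 0.323% and 1.64% of the macrophage-type cells.

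Il4 was seen in 102 of 172 cells with Il13 and in 2 of 18 without, and in 44 of 95 cells with Il5 and 60 of 95 without. These splits use the values of the rule, by which a cell without either transcript must have 2 or more UMIs of the other, so nothing is read from them. Of the 18 cells without Il13, 6 and 3 were in DKO and 1 and 8 in control, the 8 being in control 2, where Il4 was seen least. Il10, which encodes an anti-inflammatory cytokine, was seen in 54 of 104 cells with Il4 and in 11 of 86 without. Across the 190 cells the correlation of log levels was r = 0.54 for Il4 with Il10, 0.45 for Il13 with Il4 and 0.13 for Il13 with Il5; these are descriptions over cells that share libraries and differ in depth. The selection on the sum of Il13 and Il5 itself lowers the correlation between them, so the values are not compared. Cells with 10 or more Il13 and Il5 UMIs had a median depth of 10101 UMIs, against 7041 for the others, so any transcript had a better chance of being seen in them.

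A smaller set of cells carried transcripts of other T helper programmes. Ifng, the defining cytokine of type 1 immunity, was seen in 28 cells: in 20 of 174 cells with Gata3 and in 8 of 16 without, with r = -0.41 between the genes. Csf2, which encodes GM-CSF, was seen in 24 cells, and its level went with that of Ifng at r = 0.56 (Spearman's rho 0.30). Mki67, of dividing cells, was seen in 36 cells, Ccl1, a chemokine that attracts CCR8-bearing cells, in 72, and Il9 in 0.

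To place the cells within the tumour T cells they were set against 1212 conventional CD4 T cells, defined by Cd3 and Cd4 UMIs without Cd8a, Cd8b1, Foxp3, Il13 or Il5 and with the same limits on mast cell and C1q genes. UMIs were summed per library and cell set and given as CPM, the UMIs of a gene per 1000000 UMIs of that set in that library, a scale that does not compare levels between genes. Type 2 cytokine cells were marked by type 2 cytokines, GATA3 and PPARγ transcripts, IL-33 and TSLP receptor transcripts and the steroid-making enzyme Cyp11a1, and had less of the memory and homing genes Tcf7, Cxcr3 and S1pr1. Of 7686 genes tested, 1110 (14.4%) passed edgeR's quasi-likelihood test with Benjamini-Hochberg adjustment at 0.05, with the library as a block: 586 (7.62%) were higher and 524 (6.82%) lower. The genes of the definitions were left out of the test. The type 2 cytokine cells were deeper in every library, at medians of 6959 and 9966 UMIs in DKO and 7283 and 7372 in control, against 4972 and 5814 and 4447 and 4773 UMIs for conventional CD4 T cells, and the part of depth in these calls was not tested.

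Of the 18 listed helper cytokines 12 could be tested; 5 were higher and 1 lower, with a median log2 difference of 1.65 beside 0.01 over all genes tested. Il4 was at 840.0 and 738 CPM in DKO and 598 and 262 CPM in control type 2 cytokine cells, against 8.49 and 13.9 and 14.5 and 6.18 CPM in conventional CD4 T cells of the same groups. The sets did not overlap, and the log2 difference was 5.97 ± 0.18 (standard error; edgeR adjusted p = 3.67e-15). Areg averaged 1879.9 ± 662 CPM in type 2 cytokine cells and 172 ± 51.5 CPM in conventional CD4 T cells (SD, n = 4 libraries each; log2 3.56, edgeR adjusted p = 0.0278). Lif, a cytokine of the IL-6 family, was also higher (log2 2.15, edgeR adjusted p = 1.9e-06).

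Il10 averaged 664 ± 485 CPM against 36.7 ± 31.1 CPM (log2 4.30, edgeR adjusted p = 0.0166), and the lowest value, 96.8 CPM in control 2, was above all 4 of the CD4 set. Calca, the precursor of the neuropeptide CGRP, had 234 and 282 CPM in DKO and 843 and 50.2 CPM in control, and 15.6 to 27.5 CPM in conventional CD4 T cells (log2 3.97, edgeR adjusted p = 0.0336); 1 cell held 32.7% of its UMIs. These 3 calls were lost without certain libraries. For Areg edgeR's adjusted p was 0.131 without DKO 2, 0.104 without control 1 and 0.0983 without control 2, for Il10 it was 0.129 without DKO 1 and 0.0937 without DKO 2, and for Calca 0.194 without DKO 1, 0.182 without DKO 2 and 0.0618 without marked doublets, while each log2 difference stayed at 3.69 or more. The calls of Areg and Calca were also lost without the low-count filter (log2 3.49 and 3.91, edgeR adjusted p = 0.0582 and 0.0718). In cells with at most 3 UMIs of listed macrophage markers they were lost as well (log2 3.54 and 3.90, edgeR adjusted p = 0.0579 and 0.0714). Tnf, which encodes tumour necrosis factor, was the cytokine that was lower (log2 -1.25).

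Among 27 listed transcription factors 22 were tested, 5 of them higher and 6 lower, with a median of -0.10. Gata3 was at 1134 and 1181 CPM in DKO and 835 and 649 CPM in control type 2 cytokine cells, and at 229 to 395 CPM in conventional CD4 T cells (log2 1.81 ± 0.11, edgeR adjusted p = 2.66e-11). Pparg, a lipid-sensing nuclear receptor required for Th2 and ILC2 responses in mice, was at 124 and 162 CPM in DKO and 117 and 89.6 CPM in control, against 7.95 to 14.7 CPM in conventional CD4 T cells (log2 3.67, edgeR adjusted p = 6.52e-12). Batf, Nfil3 and Id2 were higher by 0.50 to 1.07. Tcf7 and Lef1, of memory and stem-like T cells, had log2 differences of -4.04 and -1.33, and the Th1 factor Tbx21 one of -0.85. Without DKO 2 the Tbx21 call was lost (log2 -0.73, edgeR adjusted p = 0.0966), and DESeq2 did not call it (adjusted p = 0.0798). In cells with at most 3 UMIs of listed macrophage markers the calls of Tbx21, Nfil3 and Id2 were lost (edgeR adjusted p = 0.15, 0.109 and 0.0818). Rora, used by ILC2 and by some T cells, was lower at 233 ± 29.1 against 404 ± 69.7 CPM.

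Among 22 listed receptors and sensors of type 2 cells 16 were tested, with 11 higher, 2 lower and a median of 0.91. Il1rl1, the IL-33 receptor, was at 375 and 428 CPM in DKO and 184 and 190.0 CPM in control type 2 cytokine cells, against 58.1 and 145 and 54.2 and 70.3 CPM in conventional CD4 T cells (log2 2.01 ± 0.19, edgeR adjusted p = 1.37e-05). Crlf2, the TSLP receptor, averaged 369 ± 49.5 against 213 ± 23.4 CPM, and Il7r, its partner chain, 611 ± 90.1 against 266 ± 51.2 CPM. Cysltr1, a leukotriene receptor, and Calcrl with Ramp1, which together form the CGRP receptor, were higher by 1.77 to 2.15. Il2ra, the high-affinity chain of the IL-2 receptor, averaged 992 ± 615 against 153 ± 20.7 CPM (log2 2.68, edgeR adjusted p = 0.0159), but without DKO 1 the adjusted p was 0.115. The Ramp1 call was lost without DKO 1 (0.191) or control 2 (0.0961). Il18r1, the IL-18 receptor of type 1 cells, had a log2 difference of -2.39.

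Further genes of large difference were Cyp11a1, which starts steroid synthesis from cholesterol, at 199 ± 104 against 6.70 ± 1.73 CPM (log2 5.10, edgeR adjusted p = 1.67e-07), Hc, complement component C5, at 52.8 ± 7.84 against 4.28 ± 2.54 CPM (log2 3.81), and Adarb1, an RNA-editing enzyme, at 53.0 ± 26.3 against 8.86 ± 2.47 CPM (log2 2.72). Hdc, which makes histamine, was at 259 and 720.2 CPM in DKO and 512 and 674 CPM in control, against 24.6 and 37.0 and 70.9 and 132 CPM in conventional CD4 T cells (log2 3.32, edgeR adjusted p = 0.0174). Without DKO 1 its adjusted p was 0.131 and without control 1 it was 0.0688. Hdc was the only tested gene of 12 mast cell and basophil markers, of which 7 had 0 UMIs in the type 2 cytokine cells; 4 of those 7 are held at 0 by the rule. The lipid genes Hilpda and Dgat1 were higher by 1.90 and 0.92, and with Pparg they were the 3 higher genes of 8 tested on the lipid and arginine list, with 0 lower (median 0.85).

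On the homing side 1 of 15 tested chemokine genes and receptors was higher and 5 were lower, with a median of -0.97. Cxcr3, the homing receptor of Th1 cells, was at 3.47 ± 2.57 against 54.9 ± 7.92 CPM (log2 -3.73, edgeR adjusted p = 6.51e-08), and S1pr1, needed to leave tissue, at 9.08 ± 5.21 against 65.8 ± 37.8 CPM (log2 -2.74). Ccr1 was the higher one (log2 1.56). Ccl1 had 1361 and 376 CPM in DKO and 1242 and 2695 CPM in control, with 25.2% of its UMIs in 1 cell, and was not called (log2 2.70, edgeR adjusted p = 0.341). The NK receptors Klrd1 and Klrk1 were lower by more than 2 log2 units, at -3.23 and -2.80.

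The 17 tested genes of the T cell identity list had a median log2 difference of 0.05. Trac was at 615 ± 96.2 against 785 ± 47.9 CPM (log2 -0.24, edgeR adjusted p = 0.112) and Trbc2 at 1288 ± 210.2 against 1258 ± 161 CPM (log2 0.15, edgeR adjusted p = 0.336). Lat and Zap70, which relay the T cell receptor signal, were higher by 0.35 and 0.41, but both calls were lost without DKO 2 or control 1. DESeq2 called neither (adjusted p = 0.163 and 0.0583). The call of Lat was also lost without control 2 and without the low-count filter (edgeR adjusted p = 0.0716 and 0.11). Of 11 tested inhibitory and costimulatory receptors, Lag3, Havcr2 and Tnfrsf9 were higher (log2 1.54, 1.06 and 1.61) and Cd27 and Cd96 lower. The calls of Lag3 and Lat were lost in cells with at most 3 UMIs of listed macrophage markers (log2 1.24 and 0.31, edgeR adjusted p = 0.0579 and 0.194). Of 12 listed cell cycle genes 1 was higher. Of 7 tested retinoid receptors and targets Itgb7, an integrin chain, was higher (log2 0.48). That call was lost without DKO 1 or control 2, and under DESeq2 (adjusted p = 0.149).

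**Figure D2:**
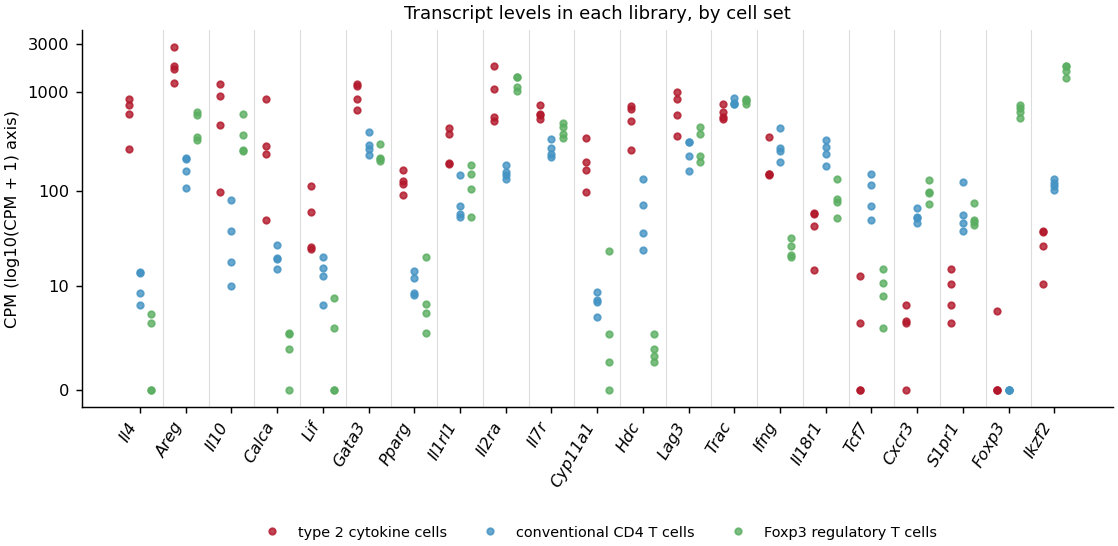
CPM of 21 named genes in type 2 cytokine cells (red), conventional CD4 T cells (blue) and Foxp3 regulatory T cells (green), on a log10(CPM + 1) axis; each point is 1 of the 4 libraries. Il4, Gata3, Pparg and Cyp11a1 of the type 2 cytokine cells lie above the other sets in all 4 libraries, Trac lies close in all sets, and Ikzf2 lies highest in the regulatory T cells, which Foxp3 defines.

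The second comparison was with 490 regulatory T cells, defined by Cd3 and Foxp3 UMIs without Cd8a, Cd8b1, Il13 or Il5; such cells are known to carry IL-2 and IL-33 receptors in tumours. Of 6265 genes tested 1672 (26.7%) passed the edgeR test, 809 (12.9%) higher and 863 (13.8%) lower. Il4 was at 609.6 ± 252 CPM in type 2 cytokine cells and 2.11 ± 2.48 CPM in regulatory T cells (n = 4, log2 8.17, edgeR adjusted p = 1.13e-18), Gata3 at 949.9 ± 252 against 229 ± 43.3 CPM (log2 2.23) and Cyp11a1 at 199 ± 104 against 6.85 ± 11.4 CPM (log2 5.31). Slc17a6, a vesicular glutamate transporter, was at 228 and 536 CPM in DKO and 177 and 108 CPM in control, and had 0 UMIs in the regulatory T cells of all 4 libraries.

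Il2ra, Tnfrsf9 and Il10, which type 2 cytokine cells had above conventional CD4 T cells, did not pass the test against regulatory T cells. Il2ra was at 992 ± 615 against 1239 ± 202 CPM (log2 -0.27 ± 0.26, edgeR adjusted p = 0.55). Without DKO 2 Il2ra was lower (log2 -0.58, edgeR adjusted p = 0.00442). It was also lower in cells with at most 3 UMIs of listed macrophage markers (log2 -0.61, edgeR adjusted p = 0.0321). Tnfrsf9 was at 934 ± 103 against 1257 ± 89.8 CPM (log2 -0.24 ± 0.11, edgeR adjusted p = 0.11). Il10 was at 664 ± 485 against 368 ± 158 CPM (log2 0.88, edgeR adjusted p = 0.369), and without control 2 it was higher (log2 1.26, edgeR adjusted p = 0.000337). Il1rl1 was higher, at 294 ± 126 against 122 ± 55.8 CPM (log2 1.54, edgeR adjusted p = 0.0105, and 0.0626 without DKO 2). The Il1rl1 call was also lost at 3 or more Il13 and Il5 UMIs (log2 1.43, edgeR adjusted p = 0.0731). The same held in cells with at most 3 UMIs of listed macrophage markers (log2 1.52, edgeR adjusted p = 0.0882).

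The regulatory set kept its own genes. Ikzf2, which encodes Helios, was at 10.8 to 38.9 CPM in type 2 cytokine cells and 1360 to 1815 CPM in regulatory T cells (log2 -5.62, edgeR adjusted p = 1.48e-19), Lrrc32, a carrier of latent TGF-β, at 0.896 ± 1.79 against 149 ± 25.3 CPM, and Itgae, the CD103 integrin chain, at 0.843 ± 1.02 against 191 ± 71.1 CPM. Ctla4 was lower at 861 ± 553 against 1486 ± 474 CPM (log2 -0.71, edgeR adjusted p = 0.000462). Antigen-presenting cell transcripts were higher in the regulatory set: the summed level of 8 dendritic cell markers was 205 and 669.6 CPM in DKO and 410.2 and 569.9 CPM in control type 2 cytokine cells, against 1599 and 3969 and 5453 and 3421 CPM in regulatory T cells. Ciita and Cxcl10 were also lower in type 2 cytokine cells, by more than 4 log2 units. Whether these differences are related to that of the dendritic cell markers was not tested.

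The DKO and control tumours were first compared in the number of type 2 cytokine cells. These made up 0.868% (0.658 to 1.12) and 1.44% (1.12 to 1.82) of the cells in DKO, 57 of 6565 and 70 of 4859, and 0.362% (0.245 to 0.517) and 0.412% (0.284 to 0.578) in control, 30 of 8276 and 33 of 8005 (exact Clopper-Pearson 95% intervals, counting error only). Both DKO libraries were above both control libraries. The means were 1.15 ± 0.405% in DKO and 0.387 ± 0.0352% in control (SD, n = 2), a ratio of 2.98. An exact two-sided permutation test gave p = 0.33, the smallest that 2 libraries against 2 allow, so the difference cannot pass a threshold of 0.05.

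The size of the difference depended on the cells used as the total. Of cells with at most 3 C1q UMIs they were 1.55% and 2.52% in DKO and 0.777% and 0.860% in control, a ratio of 2.49. Of cells with a Cd3 UMI they were 2.79% and 4.70% in DKO and 1.81% and 2.56% in control, a ratio of 1.71. Of type 2 cytokine and conventional CD4 T cells together they were 12.4% and 18.9% in DKO and 9.93% and 12.3% in control, a ratio of 1.41, with DKO 1 and control 2 almost equal. Without DKO 2 the share of all cells was 0.868% in DKO against 0.387% in control, a ratio of 2.24. Type 2 cytokine cells were deepest in DKO 2. After thinning every cell to 3000 UMIs, which left out 1027 and 624 shallower cells in DKO and 1392 and 1215 in control, the shares were 0.722% and 1.06% in DKO and 0.305% and 0.324% in control.

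**Figure D3:**
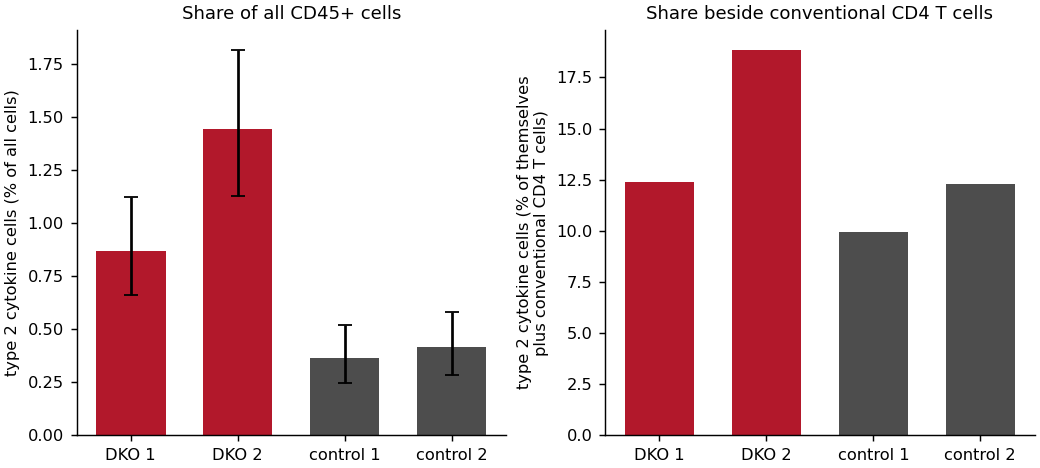
Type 2 cytokine cells as a percentage of all cells that passed the filter (left, with exact 95% Clopper-Pearson intervals) and of themselves plus conventional CD4 T cells (right), 1 bar per library with DKO in red and control in grey. The DKO libraries stand at 0.868% and 1.44% against 0.362% and 0.412% on the left, while on the right DKO 1 at 12.4% is next to control 2 at 12.3%.

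Within the type 2 cytokine cells Il1rl1, Il2ra, Ctla4 and Ier3 were among the genes called higher in DKO and macrophage genes among those called lower. Of 4937 genes tested, 44 (0.891%) passed the edgeR test, 12 (0.243%) higher and 32 (0.648%) lower in DKO. Of the 10 helper cytokines tested 0 were called (median log2 -0.01, beside 0.00 over all genes). DESeq2 called 23 genes in all, and 455 had an unadjusted edgeR p under 0.05. The type 2 cytokine cells of a library are few. In simulated data of this size the test recovered 35% of changes of 1 log2 unit and 91% of changes of 2. Each simulated gene had the spread typical of its level, so these rates do not cover genes with a larger spread.

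Il4 was at 840.0 and 738 CPM in DKO, against 598 and 262 CPM in control; the groups did not overlap, as was so for 39.9% of the genes tested, and the difference was not called (log2 0.83 ± 0.31, edgeR adjusted p = 0.418; log2 1.47 and adjusted p = 0.00507 without control 1, the adjusted p reaching 0.999 over all alternatives). Il10 was at 896 and 1202 CPM in DKO, against 463 and 96.8 CPM in control (log2 1.87 ± 0.67, edgeR adjusted p = 0.532; log2 3.31 and adjusted p = 2.24e-11 without control 1, likewise reaching 0.999). Areg was at 2792 and 1831 CPM in DKO, against 1682 and 1215 CPM in control (log2 0.62 ± 0.28, edgeR adjusted p = 0.532). Lif had log2 1.69 ± 0.42 with adjusted p = 0.0883, and Csf2 log2 -2.02 ± 0.69 with adjusted p = 0.522. Csf2 was at 33.2 and 66.2 CPM in DKO, against 94.1 and 301 CPM in control, and was seen in 24 of the 190 cells. Single cells of control 2 held 20 and 31 of its UMIs, and single cells of DKO 2 held 30 and 16. Csf2 passed under DESeq2 (adjusted p = 0.0427) and in edgeR without the low-count filter (adjusted p = 1.59e-05). With the replicate number as a block Csf2 passed in edgeR too (log2 -2.03, adjusted p = 0.0156). Il10 passed in edgeR without the low-count filter (log2 1.93, adjusted p = 0.00112). Lif passed in edgeR without that filter (adjusted p = 0.00312) and at 3 or more Il13 and Il5 UMIs (0.0363). Over all alternatives the log2 difference ran from -2.66 to -0.87 for Csf2 and from 1.20 to 2.64 for Lif. For reference, the rule's own gene Il13 was at 2433 and 1705 CPM in DKO and at 1279 and 1925 CPM in control. Il5 was at 549.6 and 533 CPM in DKO and at 403 and 326 CPM in control. Single cells of control 2 held 188 and 136 of its 537 Il13 UMIs, and single cells of control 1 held 79 and 47 of 340. In DKO the highest cells held 254 and 120 Il13 UMIs in DKO 1 and 131 and 88 in DKO 2.

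Receptors of IL-33 and IL-2 and an inhibitory receptor were higher in DKO at the threshold. Il1rl1 was at 375 and 428 CPM in DKO, against 184 and 190.0 CPM in control (log2 1.03 ± 0.23, edgeR adjusted p = 0.0448). Il2ra was at 1074 and 1829.8 CPM in DKO, against 553 and 509 CPM in control (log2 1.38 ± 0.27, adjusted p = 0.0214). Ctla4, which restrains T cell activation, was at 869 and 1635 CPM in DKO, against 553 and 387 CPM in control (log2 1.35 ± 0.30, adjusted p = 0.0448). In each gene both DKO libraries lay above both control libraries, as was so for 23.3% of the 4937 genes tested. All 3 calls were lost when marked doublets were left out, with edgeR adjusted p of 0.119, 0.0801 and 0.123 and log2 differences of 1.01, 1.29 and 1.26. They were also lost without DKO 2 (log2 0.98, 1.00 and 0.88; adjusted p 0.180, 0.157 and 0.317), that of Il1rl1 also without control 1 (0.130) or control 2 (0.0588), and that of Ctla4 also without control 2 (0.104). DESeq2 did not call Il1rl1 (adjusted p = 0.307).

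Ier3, an immediate-early gene induced by stress and NF-κB, was at 494 and 550.2 CPM in DKO, against 113 and 208 CPM in control (log2 1.62 ± 0.28, edgeR adjusted p = 0.011), and the call held without marked doublets and without each library in turn. Hsd17b7, an enzyme of cholesterol and steroid synthesis, was at 64.3 and 79.2 CPM in DKO, against 11.3 and 10.8 CPM in control, from 3 UMIs in each control library (log2 2.62 ± 0.47, adjusted p = 0.0127; 0.125 without DKO 2 and 0.181 by DESeq2). Serpinb6b, a serine protease inhibitor, was at 83.0 and 81.8 CPM in DKO, against 192 and 329.7 CPM in control (log2 -1.75 ± 0.30, adjusted p = 0.00851). These 3 genes were the only calls left without marked doublets, where 21 of the 44 called genes could still be tested. Lta, which encodes lymphotoxin alpha, was at 16.6 and 9.08 CPM in DKO, against 48.9 and 136 CPM in control (log2 -3.00, adjusted p = 0.0235). It was seen in 16 cells, and 1 cell of control 2 held 48.5% of its 66 UMIs. Without control 2 the log2 difference of Lta was -1.995 and the call was lost. The other higher genes were Irs2, Csrnp1, Gem, Egln3, Man2a2, Hlf and 4932438H23Rik, at log2 1.40 to 2.58; Hlf had an adjusted p of 0.0438, and of 0.997 without DKO 2.

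The genes lower in DKO included 6 listed macrophage and monocyte markers, 2 of the NK list that myeloid cells also express (Fcer1g and Tyrobp) and Fn1 of the tumour and stromal list. Lyz2, the lysozyme of macrophages and monocytes, was at 27.0 and 31.1 CPM in DKO, against 500.5 and 290.3 CPM in control (log2 -3.80, edgeR adjusted p = 8.55e-06), and Apoe at 80.9 and 77.9 CPM in DKO, against 621 and 254 CPM in control (log2 -2.51, adjusted p = 0.00727). Tgfbi, Thbs1, Ccl6, Pf4, Ms4a6d, Fcgr3, Fn1, Fcer1g and Tyrobp moved in the same direction. Of 7 tested macrophage and monocyte markers 6 were lower (Lyz2, Apoe, Ctss, Fcgr3, Aif1 and Pf4) and 0 higher. The summed level of all 11 listed markers, none of them at 0 in all libraries, was 286 and 241 CPM in DKO and 1761 and 1211 CPM in control type 2 cytokine cells. In conventional CD4 T cells it was 459.6 and 578 CPM in DKO and 1237 and 1590.1 CPM in control.

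A large part of these UMIs lay in few cells. The 3 marked doublets of the control libraries held 360 of 468 and 180 of 338 macrophage marker UMIs, and the 1 in DKO 2 held 16 of 186. Without the 4 marked doublets Lyz2 had log2 -2.27 (edgeR adjusted p = 0.0794) and Apoe -1.05 (0.16), and 3 genes were called in all. Of the 44 genes called with all cells, 21 were tested there, and the others did not pass the low-count filter. More than 3 macrophage marker UMIs were seen in 12 of 57 and 17 of 70 cells in DKO and in 14 of 30 and 20 of 33 in control. In the cells with at most 3, which numbered 45 and 53 in DKO and 16 and 13 in control, edgeR called 0 of 3280 genes (224 with an unadjusted p under 0.05). Those 3280 included only 15 of the 44 genes called with all cells. Ier3 then had log2 3.06 (edgeR adjusted p = 0.673) and Il1rl1 log2 0.52 (0.763).

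**Figure D4:**
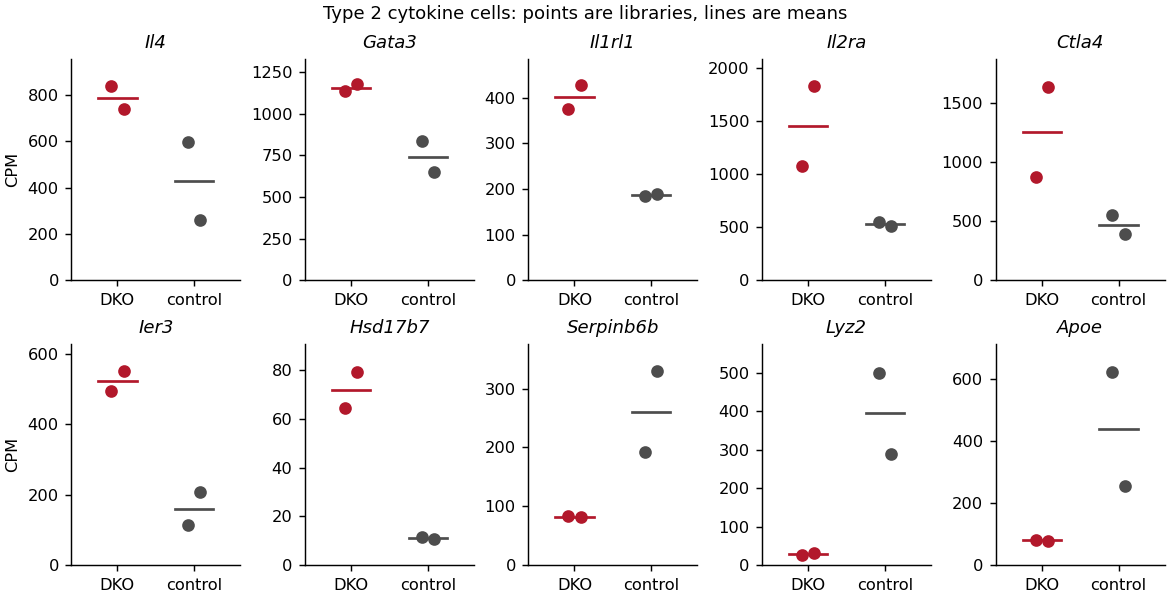
CPM of 10 genes in type 2 cytokine cells, 1 panel a gene with its own axis from 0; points are libraries and lines the means of the 2 DKO (red, left) and 2 control (grey, right) libraries. Il1rl1, Il2ra, Ctla4, Ier3 and Hsd17b7 lie higher in both DKO libraries, and Serpinb6b and the macrophage genes Lyz2 and Apoe lower. Il4 and Gata3 do not overlap but were not called. Of all genes tested 39.9% did not overlap between the groups.

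On the other lists few genes were called. Il2ra and Il1rl1 were the 2 higher of 15 tested type 2 sensors and receptors, and Ctla4 the 1 higher of 10 inhibitory and costimulatory receptors, with 0 lower on either list. Of 19 tested transcription factors 0 were called (median 0.42), Gata3 being at 1134 and 1181 CPM in DKO and at 835 and 649 CPM in control (log2 0.58 ± 0.24, edgeR adjusted p = 0.493). Of 18 T cell identity genes, 15 antigen-signal genes, 7 cell cycle genes and 4 retinoid receptors and targets 0 were called. Rara, which encodes a retinoic acid receptor, was at 47.7 and 60.99 CPM in DKO, against 45.2 and 17.9 CPM in control (log2 0.75 ± 0.43, adjusted p = 0.638), and Ccr9 and Rarb had 0 UMIs in the type 2 cytokine cells.

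Whether the change with DKO in these cells differed from that in conventional CD4 T cells was tested as a cell set by group term. Of 8409 genes 10 (0.119%) were called, 7 (0.0832%) with a more positive and 3 (0.0357%) with a more negative difference in type 2 cytokine cells; DESeq2 called 0 (104 with an unadjusted p under 0.05). Il2ra was at 1074 and 1829.8 CPM in DKO and 553 and 509 CPM in control type 2 cytokine cells, and at 155 and 180.1 CPM in DKO and 131 and 145 CPM in control conventional CD4 T cells, a difference of changes of log2 1.15 ± 0.23 (edgeR adjusted p = 0.0199; 0.724 without DKO 2). For Ier3 the difference of changes was 1.91 ± 0.28 (adjusted p = 0.000425), with 48.7 and 73.1 CPM in DKO and 57.1 and 78.8 CPM in control conventional CD4 T cells. For Il1rl1 it was 0.50 ± 0.34 (adjusted p = 0.999), for Ctla4 0.87 ± 0.28 (0.513) and for Il4 0.81 ± 0.38 (0.917), none of them past the threshold.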

How the data were processed

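The deposited files hold counts of UMIs per gene and barcode for each library; per the submitters' processing notes the authors used Cell Ranger and Seurat 3.1.0 in R 3.6.0, with GRCh38 and mm10 named as builds, and the matrices carry software version 3.1.0, per the file headers. No cell annotation was used, and no correction for free RNA was made. Cells needed 200 genes and at most 10% mitochondrial UMIs. Cell sets were gated on raw UMIs as the report states, and counts were summed per library and set, since cells are not replicates. Sums were tested with edgeR 4.0.16 in R 4.3.3 (TMM, filterByExpr, robust glmQLFit, glmQLFTest, Benjamini-Hochberg at 0.05), with the library as block where 2 cell sets of the same libraries were compared; gate genes were left out there. DESeq2 1.42.0 was an alternative. Doublets were marked with Scrublet in scanpy 1.11.5 at 0.8% per 1000 barcodes and kept in the values unless stated. The sums were given as CPM for description. Scripts were tested on simulated data. Shares were compared by an exact permutation test over libraries, whose number and depth limit the precision.

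The members and the gene lists were chosen with earlier results of these data known. Genes outside the lists were named by a rule: the 10 largest log2 differences in each direction against each T cell set among called genes with at least 50 CPM and 1 direction in all 4 libraries, the 10 smallest p for DKO against control and the 5 smallest for the difference of changes; the other genes called with DKO, Hlf and Lta among them, were named after their values were seen. Alternatives were DESeq2, its size factors, no low-count filter, no marked doublets, other thresholds, cells with Cd3 only, leaving out each library, the replicate number as a block and, added after seeing the data, cells with at most 3 macrophage marker UMIs and the share of type 2 cytokine plus conventional CD4 T cells. One gene of the T cell identity list is not reported here.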

Additional observations from a re-analysis of the deposited data

Results flagged for a closer look

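The change with DKO in type 2 cytokine cells differed from that in conventional CD4 T cells, by the cell set by group term of edgeR, for 10 genes; the values here are differences of the 2 log2 changes. Of those named, 5 were more positive. Ier3 differed by 1.91 and Il2ra by 1.15, with the levels given above. Hdc differed by 1.32 (edgeR adjusted p = 0.0359; 1.00 without DKO 2 and 0.0832 without control 2), with 259 and 720.2 CPM in DKO and 512 and 674 CPM in control type 2 cytokine cells (log2 -0.35, adjusted p = 0.863), and 24.6 and 37.0 CPM in DKO and 70.9 and 132 CPM in control conventional CD4 T cells. Hlf, a transcription factor, differed by 4.03 (edgeR adjusted p = 0.0199; 0.5 without DKO 2 and 0.274 without control 1), with 49.8 and 109 CPM in DKO and 7.53 and 17.9 CPM in control. Fscn1 differed by 11.61, but 97.6% of its UMIs lay in 1 cell of DKO 2, and without DKO 2 it was not called (adjusted p = 1.00).

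Those more negative were Spp1 at -3.31, Fcer1g at -1.70 and Klrc2 at -2.42. Of the Spp1 UMIs 55.8% lay in marked doublets, and of the Fcer1g UMIs 59.6%; without marked doublets neither was called (adjusted p 0.837 and 0.997), nor without DKO 2 (0.334 and 0.0681). Klrc2, an NK receptor chain, was at 12.4 and 20.8 CPM in DKO and 33.9 and 75.3 CPM in control type 2 cytokine cells, against 146 and 155 CPM in DKO and 91.1 and 85.7 CPM in control conventional CD4 T cells, and lost its call without control 2 (adjusted p 0.401). Retnla and Hist1h2ap, the other two, lie outside the naming rule and are not described.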

How the results depend on the processing

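The share of type 2 cytokine cells stayed higher in DKO under every denominator, threshold and depth tried, with the difference of means between 0.481 and 1.05 percentage points when 1 library was left out. For DKO against control (12 genes higher, 32 lower), DESeq2 called 3 and 20, no low-count filter 45 and 66, no marked doublets 2 and 1, at most 3 macrophage marker UMIs 0 and 0, and leaving out 1 library 14 to 52 and 36 to 70. Against conventional CD4 T cells (586 and 524), DESeq2 called 349 and 264, and leaving out 1 library 365 to 583 and 296 to 560. Against regulatory T cells (809 and 863), DESeq2 called 466 and 472, at most 3 macrophage marker UMIs 512 and 533, and leaving out 1 library 530 to 785 higher. For the difference of changes (7 and 3), DESeq2 called 0 and 0, no filter 26 and 23, leaving out 1 library 16 to 23 and 11 to 37; the lower count was 1 without marked doublets, 6 at 3 or more Il13 and Il5 UMIs and 7 with Cd3 required. The difference of changes of Spp1 reversed in cells with at most 3 macrophage marker UMIs (3.40). The cause was not tested.

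Nothing in the labels says whether the replicate numbers pair the libraries. Over 4937 genes the deviations of same-numbered libraries correlated at -0.0821, but 2 pairs of sums over few cells cannot settle it. With the replicate number as a block, DKO against control gave 5 higher and 23 lower genes, without Il1rl1, Il2ra and Ctla4 (adjusted p 0.196, 0.215 and 0.310), and the permutation p of the share was 0.5, the smallest 2 pairs allow. The control libraries held 30 and 33 type 2 cytokine cells, which limits the precision of their values.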
